A study of Mus musculus with 6 samples.

Results

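Of the 43629 genes counted in embryonic mouse cardiomyocytes after knockdown of DNA methyltransferase 1 (DNMT1), 10 genes of the AP-1 and immediate early group are described here. They are Fos, Fosb, Fosl1 and Fosl2 of the Fos family, Jun, Junb and Jund of the Jun family, and Atf3, Egr1 and Ier2. They were listed by symbol, with no measured value in the rule, and each symbol matched 1 Ensembl gene. All 10 had enough counts to be tested, among 15470 genes tested.

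AP-1 is a family of transcription factors built from pairs of leucine zipper proteins: a Fos protein pairs only with a partner such as a Jun protein, whereas Jun proteins also pair with each other and with ATF proteins. Immediate early genes are transcribed within minutes of a stimulus such as serum, stretch or stress, without new protein synthesis, and their RNAs are short-lived. In the heart they are best known for their response to load and to hypertrophic agonists.

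The cells were primary cultures of ventricles from CD-1 embryos at embryonic day 13.5, with the ventricles of a litter pooled. Both groups were transfected at 12 nM, either with an AllStars negative control siRNA (3 cultures) or with a pool of 4 siRNAs against DNMT1 (3 cultures), and untransfected cells were not analysed here. After 72 h the cells were sorted on magnetic columns by their VCAM1 surface protein and poly(A) RNA was sequenced. The labels do not tie cultures to litters, so p-values measure the spread between these cultures, which may be technical, and a characteristics label of the knockdown samples names DNMT3a siRNA where their titles name DNMT1, which was followed. DNMT1 copies methylation of CG sites onto newly made DNA, and the comparison asks which genes differed in expression when it was depleted.

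Counts on genes were 27852412 to 35896018 in the negative siRNA libraries and 13739561 to 16186310 in the DNMT1 siRNA libraries. Expression is given as CPM, counts relative to the size of the library after TMM scaling, and levels are compared between genes only as RPKM, that is CPM per kilobase of exonic length. Dnmt1 was 139 ± 16.9 CPM with negative siRNA and 34.1 ± 3.03 CPM with DNMT1 siRNA (mean ± SD over 3 cultures), or -2.03 on the log2 scale (SE 0.11, FDR = 0.000192), whereas Dnmt3a and Dnmt3b did not pass the test (log2 fold changes 0.24 and 0.21). Reads mapped outside annotated genes were 15.1% to 18.2% of gene and non-gene reads with negative siRNA and 26.0% to 34.1% with DNMT1 siRNA (exact permutation p = 0.1, two-sided, the smallest that 3 against 3 allow). The 7 listed RNAs that lack a poly(A) tail summed to 3.94 to 4.81 CPM with negative siRNA and 41.6 to 75.7 CPM with DNMT1 siRNA. Of these, 4 were tested (Rpph1, Rmrp, Rprl3, Rn7sk), and all 4 were up-regulated, where 4.26% of all genes tested were. In a principal component analysis the first component (48.3% of the variance) separated the treatments, and negative siRNA culture 2 stood apart from the other negative siRNA cultures on the second (-37.1 against 24.0 and 18.4). These library properties moved with the treatment, and their part in the members' values was not tested.

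Marker genes of cardiomyocytes and of other cell types also moved with the treatment. Among all genes tested, 4.26% were up-regulated and 2.23% down-regulated. Of 14 cardiomyocyte markers, 10 were up-regulated, and their summed level went from 685 to 944 RPKM in the negative siRNA cultures to 1489 to 1885 RPKM with DNMT1 siRNA. Of 8 fibroblast markers 3 were down-regulated, and their sum was 4601 to 7000 RPKM against 3478 to 3689 RPKM. The fibroblast sum, led by collagens, exceeded the cardiomyocyte sum in all 6 libraries. Endothelial markers (3 of 8 up-regulated) summed to 16.1 to 22.9 against 31.7 to 34.7 RPKM. In CPM the endothelial sum was 93.2 to 123 against 213 to 227. Npr3, also an endocardial gene, made up much of that rise, from 15.3 ± 6.16 to 103 ± 5.13 CPM. Tek was lower (log2 fold change -0.35, FDR = 0.0373), and Nfatc1 was not higher (log2 fold change -0.11). The sums were 9.98 to 29.9 against 8.30 to 12.1 RPKM for macrophage markers (2 of 8 down-regulated). For smooth muscle and pericyte markers 1 of 7 tested was down-regulated (2385 to 3629 against 2028 to 2119 RPKM), and for epicardial markers 1 of 8 (551 to 631 against 606 to 635 RPKM). Of 8 blood markers 2 were tested, neither was called and 1 was at 0 in every library. Immediate early genes are used by all of these cell types, a change in the mix of cells and a change in RNA per cell cannot be told apart in such bulk RNA, and the part of the markers in the results was not tested.

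Promoter windows of 250 bases upstream of the start site were taken from RefSeq (GRCm38.p6) for Fos, Fosb, Fosl2, Jun, Junb, Jund and Atf3, while Fosl1, Egr1 and Ier2 had no entry. They are shown because DNMT1 acts on CG sites. Fos was the only member up-regulated here, and Junb was a member with lower CPM after knockdown. Their windows are printed with each CG in capitals, 5′ to 3′ on the strand of the gene (Fos chr12:85473640-85473889, + strand, and Junb chr8:84978749-84978998, - strand):
Fos: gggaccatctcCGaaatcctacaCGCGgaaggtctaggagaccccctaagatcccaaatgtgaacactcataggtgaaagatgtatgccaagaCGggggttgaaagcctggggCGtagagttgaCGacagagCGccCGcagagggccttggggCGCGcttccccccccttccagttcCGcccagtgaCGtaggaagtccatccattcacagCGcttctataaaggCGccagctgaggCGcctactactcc
Junb: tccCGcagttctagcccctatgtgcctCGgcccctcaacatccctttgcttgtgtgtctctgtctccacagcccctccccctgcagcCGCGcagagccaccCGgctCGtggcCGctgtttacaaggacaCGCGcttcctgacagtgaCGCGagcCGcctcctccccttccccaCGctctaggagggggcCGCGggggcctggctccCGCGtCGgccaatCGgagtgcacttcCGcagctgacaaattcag
The Fos window held 15 CG and the Junb window 20. Jun held 15, Fosb 19, Fosl2 23 and Atf3 24, against a median of 6 (quartiles 2 and 16) over 32851 RefSeq promoter windows of the same length. Jund held 3, in a window whose RefSeq start site is at -1210 bases from the start in the gene annotation used here, and the Atf3 window lies 34706 bases downstream of the most distant annotated Atf3 start. Methylation of these windows was not analysed here.

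Letters of known elements were searched on both strands of the same windows. The AP-1 element TGACTCA (in 4.46% of all windows), the cyclic AMP response element TGACGTCA (1.55%), the ETS core CCGGAA (12.0%) and the CArG box bound by SRF (1.47%) were in none of the 7 windows. Sequence further upstream than 250 bases was not searched, nor were Fosl1, Egr1 and Ier2, so elements there would be missed. The GC box GGGCGG, in 32.7% of all windows, was found once in Fos, Fosl2 and Jun, 3 times in Fosb and 5 times in Atf3. After the sequences had been seen, TGACGT, which is the start of TGACGTCA, was also searched (6.47% of windows), as was the variant TGACATCA (2.93%). TGACGT was found in the windows of Fos and Atf3 and TGACATCA in that of Jun, and neither in the other 4 windows, Fosb and Junb included. They are shown here with the matched letters in capitals (Fos chr12:85473813-85473840, + strand; Jun chr4:95052249-95052278, - strand; Atf3 chr1:191183334-191183352, - strand, matched on the opposite strand):
Fos: gttccgcccagTGACGTaggaagtccat
Jun: aagcctcggggTGACATCAtgggctatttt
Atf3: ttaatagcattACGTCAgc
These matches lie at -66 to -61 in Fos, -45 to -38 in Jun and -8 to -3 in Atf3, counted from the RefSeq start site. A match describes the letters only, and binding was not measured.

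Among the 10 members, Fos was the only one to pass both limits used here, an FDR (Benjamini-Hochberg over all genes tested) below 0.05 and a fold change above 1.5. Thus 1 of 10 members was up-regulated, where 4.26% of all genes tested were, and 0 of 10 were down-regulated, where 2.23% of all genes were. DESeq2, the edgeR exact test and limma voom each gave these counts of 1 and 0 under both limits. Without a limit on the fold change, Junb and Jund were lower at FDR below 0.05 (2 of 10, against 5.65% of all genes), and Fos was the 1 member higher at that limit (against 6.81%). By limma voom 1 member, Junb, was lower at this limit, and by DESeq2 Egr1 was higher as well as Fos. At an unadjusted p below 0.05, 3 members were higher and 2 lower, where 14.9% and 14.3% of all genes were (29.2% in either direction). The groups did not overlap for 5 of 10 members, 3 higher (Fos, Jun, Egr1) and 2 lower (Junb, Jund), against 36.0% of all genes in either direction (18.3% higher, 17.7% lower).

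**Figure D1:**
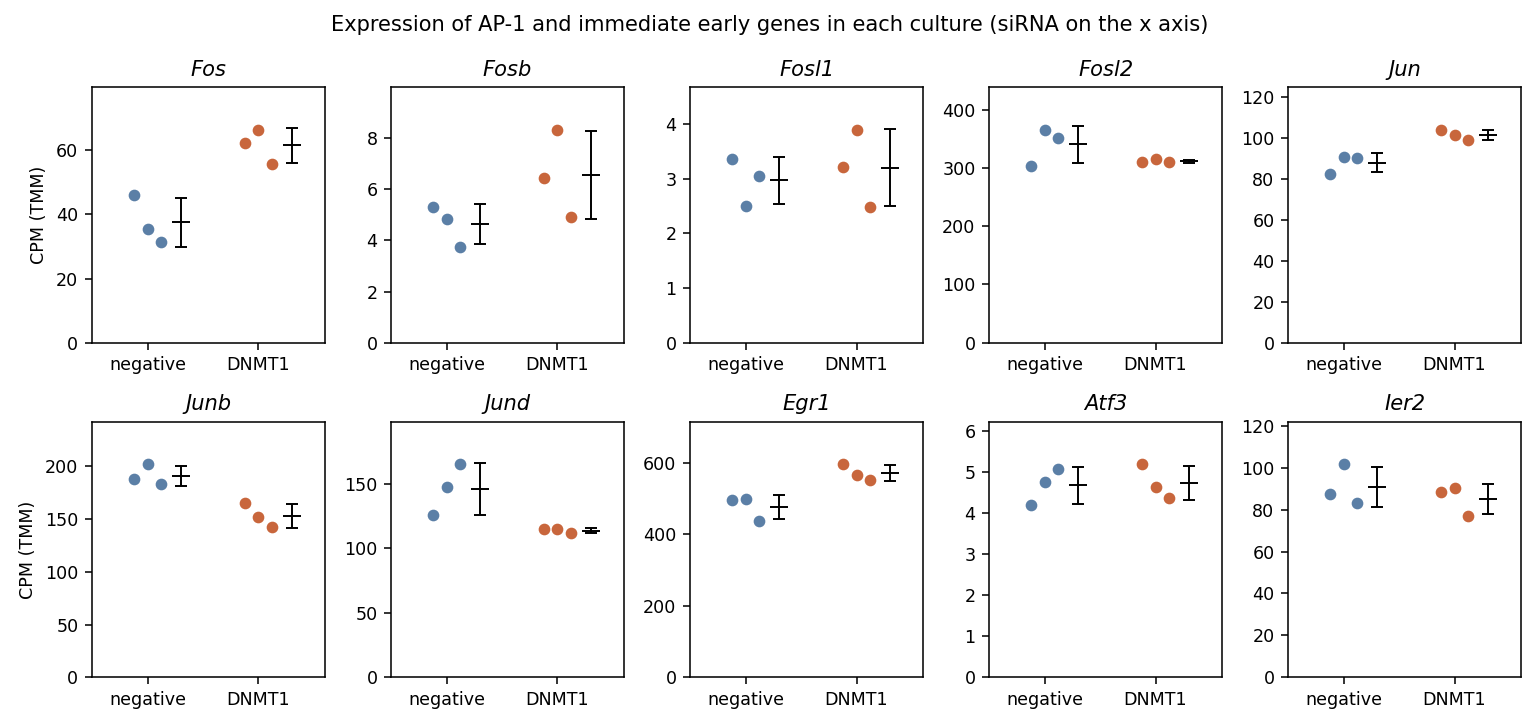
Expression (CPM after TMM scaling, linear axes from 0) of each member in the 3 negative siRNA and 3 DNMT1 siRNA cultures, with points for cultures 1 to 3 from left to right and bars for the mean ± SD. The groups are apart for Fos, Jun and Egr1, which are higher with DNMT1 siRNA, and for Junb and Jund, which are lower, and they overlap for the other 5 genes.

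Fos encodes the founding Fos protein, which has no stable dimer with itself and needs a Jun partner to bind DNA. The gene (ENSMUSG00000021250) spans chr12:85473890-85477273 on the + strand. Its level was 46.1, 35.4 and 31.3 CPM in negative siRNA cultures 1 to 3 and 62.4, 66.4 and 55.7 CPM in DNMT1 siRNA cultures 1 to 3, from 875 to 1714 and from 740 to 1011 counts. Every knockdown culture lay above every control, and the controls varied more among themselves (coefficient of variation 20.2%) than the knockdown cultures did (8.75%). The median coefficient of variation over all genes tested was likewise larger in the controls, at 12.2% against 6.88%. The log2 fold change was 0.71 (SE 0.14, 95% interval 0.38 to 1.03, FDR = 0.0176), that is 1.63-fold. Leaving out negative siRNA culture 1, the highest control, raised it to 0.88 (FDR = 0.00297), and without negative siRNA cultures 2 and 3 in turn it was 0.66 and 0.59 (FDR = 0.0171 and 0.0326). The call was lost when any 1 of the DNMT1 siRNA cultures was left out, with log2 fold changes of 0.67, 0.65 and 0.76 (FDR = 0.0805, 0.0986 and 0.0555) without cultures 1, 2 and 3. In those 3 fits 316, 255 and 314 of all genes were up-regulated, in place of 659.

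Fosb, the Fos relative whose spliced form ΔFosB accumulates in neurons under repeated stimulation, was 5.29, 4.83 and 3.76 CPM with negative siRNA and 6.42, 8.32 and 4.90 CPM with DNMT1 siRNA. DNMT1 siRNA culture 3 lay within the range of the controls. The log2 fold change of 0.50 (SE 0.22, 95% interval -0.01 to 1.01, FDR = 0.177) did not pass the test, and an increase up to 2.01-fold lay within its interval. It rests on 65 to 197 counts per library, on a gene (ENSMUSG00000003545) at chr7:19302696-19310051 on the - strand.

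Fosl1 encodes FRA1, a Fos protein without the strong activation domain of Fos. Its level was 3.36, 2.51 and 3.04 CPM with negative siRNA and 3.21, 3.89 and 2.49 CPM with DNMT1 siRNA, so that the lowest and the highest values both came from the knockdown. The log2 fold change was 0.11 (SE 0.22, 95% interval -0.40 to 0.62, FDR = 0.786) on 33 to 125 counts, and it turned negative without DNMT1 siRNA culture 2 (-0.06) and with all libraries thinned to the smallest total (-0.03). The gene (ENSMUSG00000024912, chr19:5447547-5455946, + strand) shares 2767 of its 8400 bases with Ccdc85b on the opposite strand. The strand setting of the counting is not given in the sources used here, so reads of the overlap cannot be assigned with certainty.

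Fosl2 encodes FRA2 and was the most abundant Fos family RNA per length in these cultures. It was 304, 365 and 352 CPM with negative siRNA and 310, 315 and 311 CPM with DNMT1 siRNA. The knockdown values lay close together (coefficient of variation 0.871%, against 9.45% in the controls) and above the lowest control. Over all genes tested the medians were 6.88% and 12.2%. The log2 fold change was -0.13 (SE 0.08, 95% interval -0.31 to 0.06, FDR = 0.334). The interval runs from 0.805-fold to 1.04-fold, at the gene (ENSMUSG00000029135) chr5:32135801-32157842 on the + strand.

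Jun encodes c-Jun, the AP-1 subunit that the kinases JNK phosphorylate and that activates its own promoter. Its level was 82.3, 90.6 and 90.2 CPM with negative siRNA and 104, 101 and 99.0 CPM with DNMT1 siRNA, with no overlap between the groups. The log2 fold change was 0.21 (SE 0.07, 95% interval 0.06 to 0.36, FDR = 0.0789) and did not pass the test. It stayed between 0.17 and 0.23 over 17 alternative settings and was below an FDR of 0.05 in 1 of them, without negative siRNA culture 2 (FDR = 0.0425). Jun (ENSMUSG00000052684, chr4:95049034-95052222, - strand) has 1 exon, and the antisense gene Junos, with 8 to 18 counts per library, covers 689 of its 3189 bases.

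Junb and Jund encode the other Jun proteins, which in many cell types act against c-Jun on growth. Junb (ENSMUSG00000052837, chr8:84974484-84978718, - strand) was 188, 202 and 184 CPM with negative siRNA and 165, 152 and 142 CPM with DNMT1 siRNA. Every knockdown culture was below every control, with a log2 fold change of -0.32 (SE 0.08, 95% interval -0.49 to -0.14, FDR = 0.0331). Junb was thus lower by 19.8%, below the FDR limit and well short of the fold limit. The FDR was above 0.05 when any DNMT1 siRNA culture was left out (0.0564, 0.147 and 0.136 without cultures 1, 2 and 3).

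Jund (ENSMUSG00000071076, chr8:70698949-70700616, + strand), the Jun gene known for its steady expression in resting cells, was 125, 148 and 165 CPM with negative siRNA. In the knockdown cultures it was 115, 115 and 112 CPM, all below the lowest control. The log2 fold change was -0.36 (SE 0.10, 95% interval -0.59 to -0.14, FDR = 0.0481), close to the limit. It was above the limit by limma voom (FDR = 0.0690) and with upper quartile scaling (FDR = 0.0572). Without negative siRNA culture 3, the highest control, it was -0.26 (FDR = 0.0795), without negative siRNA culture 1 it was -0.46 (FDR = 0.00798), and without DNMT1 siRNA cultures 1, 2 and 3 the FDR was 0.123, 0.162 and 0.151. Gm11175, on the opposite strand of 919 of the 1668 bases of Jund, had 0 counts in every library. Prdx2 overlaps Junb on the opposite strand by 351 of 4235 bases and did not pass the test (log2 fold change -0.16, FDR = 0.366).

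Egr1 (ENSMUSG00000038418) encodes a zinc finger factor and is a standard readout of growth factor and ERK signalling. It was the most abundant member per length in both groups. Its level was 496, 498 and 438 CPM with negative siRNA and 596, 565 and 552 CPM with DNMT1 siRNA, from 7330 to 18446 counts per library. All knockdown cultures lay above all controls, but the log2 fold change of 0.26 (SE 0.08, 95% interval 0.08 to 0.44, FDR = 0.0624) did not pass. By DESeq2 its FDR was 0.0304, with the same direction in all 17 alternative settings.

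For Atf3 and Ier2 the groups overlapped and the test was not passed. Atf3, induced by stress kinases and by the factor ATF4, was 4.19, 4.76 and 5.09 CPM with negative siRNA and 5.19, 4.63 and 4.37 CPM with DNMT1 siRNA. The values interleaved, with a log2 fold change of 0.02 (SE 0.16, 95% interval -0.34 to 0.38, FDR = 0.950), and the sign turned in 5 of 17 alternative settings. Ier2 (ENSMUSG00000053560, chr8:84661331-84662852, - strand), a serum-induced gene with 1 exon, was 87.7, 102 and 83.1 CPM with negative siRNA and 88.4, 90.2 and 77.1 CPM with DNMT1 siRNA. Its log2 fold change was -0.09 (SE 0.10, 95% interval -0.31 to 0.13, FDR = 0.575). For Atf3 (ENSMUSG00000026628, chr1:191170296-191218039, - strand) the interval spans 0.789-fold to 1.30-fold and for Ier2 0.804-fold to 1.10-fold.

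**Figure D2:**
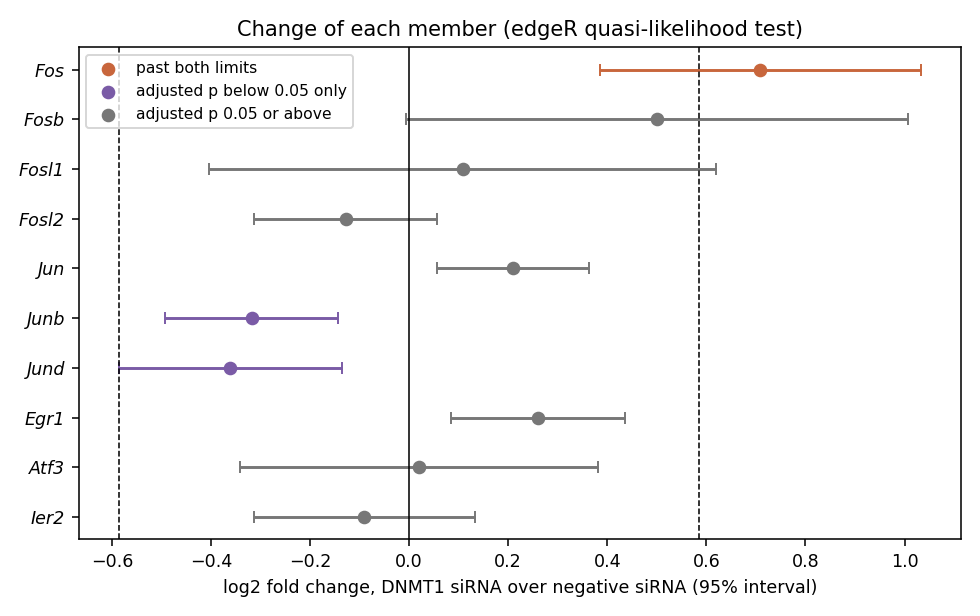
Log2 fold change (DNMT1 siRNA over negative siRNA) of the 10 members with 95% intervals from the edgeR quasi-likelihood fit, with dashed lines at 1.5-fold in either direction. Only Fos passed both limits, Junb and Jund were below an FDR of 0.05 at smaller changes, and the widest intervals belong to Fosb, Fosl1 and Atf3, the members with few counts.

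**Figure D3:**
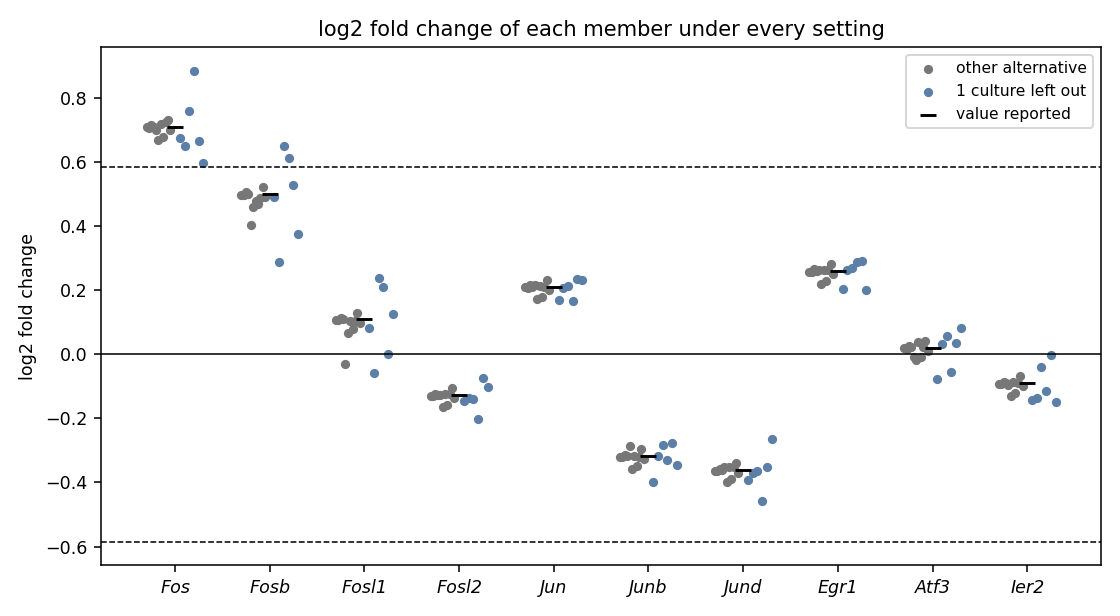
Log2 fold change of each member under 17 alternative settings, with blue points for fits that leave out 1 culture, grey points for other settings, black bars for the values reported and dashed lines at 1.5-fold. Fos stayed between 0.59 and 0.88, Junb and Jund stayed below 0 and Fosl1 and Atf3 lay on both sides of 0.

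The levels of the members span a wide range per length. With negative siRNA the order of mean RPKM was Egr1 (106), Jund (87.5), Junb (83.1), Ier2 (59.7), Fosl2 (35.2), Jun (27.5), Fos (16.0), Atf3 (2.17), Fosl1 (1.46) and Fosb (0.741). In this order the ranges over cultures overlapped for Egr1 with Jund and for Jund with Junb, and were apart for all other neighbours. With DNMT1 siRNA the order was the same, at 127, 68.1, 66.6, 56.0, 32.2, 31.8, 26.2, 2.20, 1.57 and 1.05 RPKM. There Egr1 and Jund no longer overlapped, whereas Jund with Junb, Fosl2 with Jun and Fosl1 with Fosb did. RPKM divides by the exonic length of all annotated transcripts, which understates genes expressed from shorter forms.

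The share of each family made up by Fos and by Jun was higher in every knockdown culture than in every control, although exact tests on 3 cultures per group cannot go below 0.1. Fos made up 36.6%, 27.5% and 25.7% of the summed Fos family RPKM in the negative siRNA cultures and 43.4%, 44.1% and 41.0% in the DNMT1 siRNA cultures. The means were 29.9% ± 5.84 and 42.8% ± 1.63 (SD, n = 3), a difference of 12.9 percentage points (exact permutation p = 0.1, two-sided, and 0.1 adjusted over 4 measures). Fosl2 remained the main component, with a mean of 65.9% ± 6.28 in the controls and 52.9% ± 2.40 after knockdown. Jun made up 14.1%, 13.9% and 13.7% of the Jun family with negative siRNA and 18.8%, 19.1% and 19.4% with DNMT1 siRNA. That difference of 5.21 percentage points had the same exact permutation p of 0.1, at SDs of 0.233 and 0.309. The Jun share also reflects the lower values of Junb and Jund and is not separate from them. Mean RPKM with negative and DNMT1 siRNA was 27.5 and 31.8 for Jun, 83.1 and 66.6 for Junb, and 87.5 and 68.1 for Jund.

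The balance of the families was also apart in every culture. The summed Fos family level was 53.4 ± 1.51 RPKM with negative siRNA and 61.0 ± 3.11 RPKM with DNMT1 siRNA, and the Jun family was 198 ± 13.4 and 167 ± 6.64 RPKM. The ratio of the Fos to the Jun family was 0.293, 0.268 and 0.250 in the controls and 0.353, 0.384 and 0.362 after knockdown, which does not depend on the scaling of a library. On the log2 scale it differed by 0.44 (exact permutation p = 0.1, two-sided). Counts not divided by length kept these directions but gave 6.20 percentage points for the Fos share and 0.20 for the log2 ratio.

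**Figure D4:**
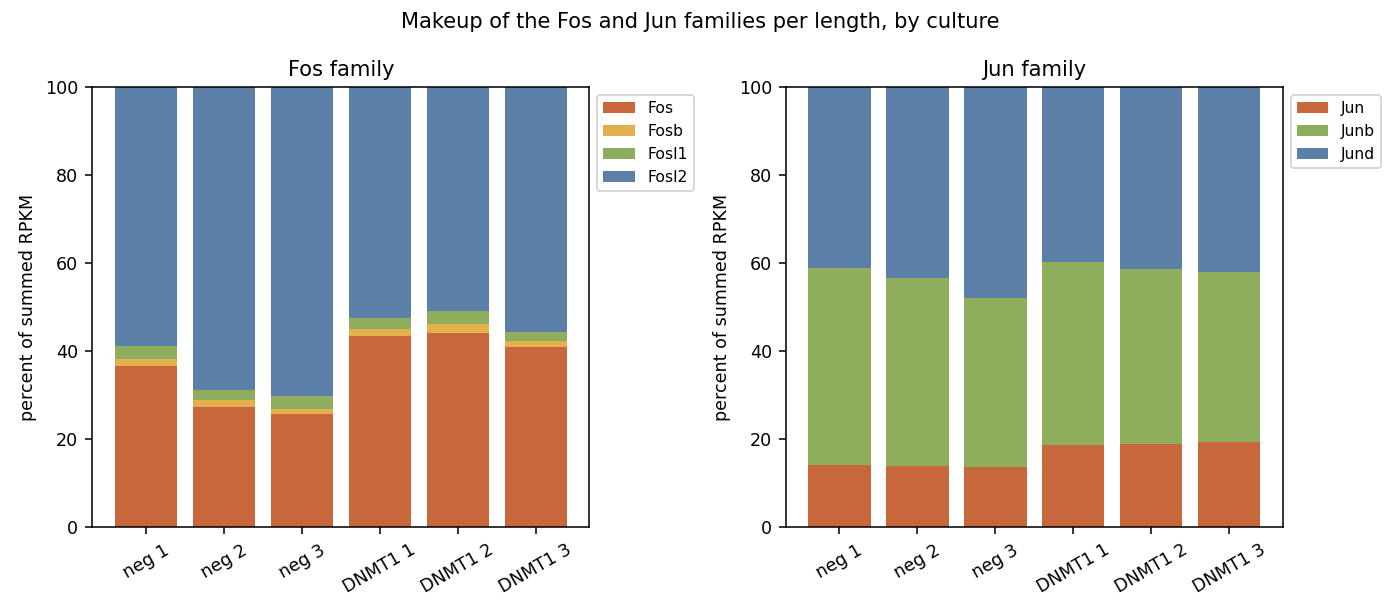
Percent of the summed RPKM of the Fos family (left) and the Jun family (right) that each gene made up in each culture (neg, negative siRNA; DNMT1, DNMT1 siRNA). The Fos segment is 25.7% to 36.6% in the controls and 41.0% to 44.1% after knockdown, and the Jun segment 13.7% to 14.1% and 18.8% to 19.4%.

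Other immediate early genes were described from a list of 50, of which 49 were tested. Of these 4 were up-regulated, where 4.26% of all genes were, and 0 down-regulated by edgeR (0 also by DESeq2, the exact test and limma voom), where 2.23% of all genes were. At FDR below 0.05 with no limit on the fold change, 11 of 49 were higher and 3 lower, against 6.81% and 5.65% of all genes. At an unadjusted p below 0.05, 13 of 49 were higher and 6 lower, against 14.9% and 14.3% of all genes. The list had a median log2 fold change of 0.12 against -0.0049 over all genes tested. Arc, a regulator of synapses and the cytoskeleton induced by activity, was 2.53, 4.32 and 2.36 CPM with negative siRNA and 11.4, 9.26 and 8.13 CPM with DNMT1 siRNA (log2 fold change 1.65, SE 0.25, FDR = 0.00652). Dusp1, the phosphatase that switches off p38 and JNK, went from 41.3 ± 4.35 to 74.4 ± 3.35 CPM (0.85 on the log2 scale, FDR = 0.00167). Btg2, an antiproliferative gene, went from 138 ± 8.68 to 223 ± 3.31 CPM (0.70, FDR = 0.00125). Arc, Dusp1 and Btg2 kept their call in each of the 6 fits that left out 1 culture. Egr3, a relative of Egr1, was 2.92 ± 0.455 and 4.91 ± 0.464 CPM (0.75, FDR = 0.0360) and lost its call without any 1 of the DNMT1 siRNA cultures or without negative siRNA culture 3. Without negative siRNA culture 1 there were 4 up-regulated and 3 down-regulated genes on the list.

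Other leucine zipper (bZIP) genes encode proteins that can pair with AP-1 subunits or share their sites. Of 32 listed, 28 were tested, 1 was up-regulated and 3 were down-regulated, against 4.26% and 2.23% of all genes, and the median log2 fold change was -0.04. The 1 gene up-regulated, 3.57% of those tested, is near the share of all genes. Creb5 was 5.82 ± 1.14 CPM with negative siRNA and 9.73 ± 0.957 CPM with DNMT1 siRNA (log2 fold change 0.74, FDR = 0.0311). Cebpa, a differentiation factor of fat, liver and myeloid cells, was 6.42, 10.0 and 10.6 against 2.90, 2.62 and 4.07 CPM (-1.50, FDR = 0.00862). Ddit3 and Atf5, factors of the stress response downstream of ATF4, had log2 fold changes of -0.68 and -0.60 (FDR = 0.00882 and 0.0312). The number of down-regulated genes was 0 without DNMT1 siRNA culture 2, 2 without DNMT1 siRNA cultures 1 or 3 or negative siRNA culture 3, and 6 without negative siRNA culture 1. Creb5 lost its call without any 1 of the DNMT1 siRNA cultures.

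Upstream of Fos and Egr1, ERK phosphorylates TCF proteins bound with SRF at CArG boxes, and JNK and p38 act on Jun and ATF proteins. Of 26 genes on the SRF, TCF and ERK list, 1 was up-regulated and 0 were down-regulated by edgeR, DESeq2, the exact test and limma voom alike. That is 3.85% up-regulated, near the 4.26% of all genes. At an unadjusted p below 0.05, 7 were higher and 7 lower, against 14.9% and 14.3% of all genes, and the median log2 fold change was 0.0051. The gene called was Myocd, the SRF coactivator of cardiac and smooth muscle, at 39.9 ± 9.05 and 60.2 ± 3.39 CPM (0.59, FDR = 0.0361), close to the fold limit, and it kept its call in 1 of the 6 fits that left out a culture, the one without negative siRNA culture 2. Without negative siRNA culture 1 the list had 0 up-regulated and 1 down-regulated gene. Of 18 JNK and p38 genes tested, 0 were called in either direction by edgeR, against 4.26% up-regulated and 2.23% down-regulated of all genes, with a median of 0.10. At an unadjusted p below 0.05, 4 were higher and 2 lower, against 14.9% and 14.3% of all genes. DESeq2 and the exact test each called 1 down-regulated, as did the fits without negative siRNA cultures 1 or 2. These are RNA levels, and phosphorylation was not measured.

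Feedback inhibitors of MAP kinase signalling include Sprouty proteins and phosphatases that act on ERK, JNK or p38. The list used here also held Etv4 and Etv5, which are transcription factors (log2 fold changes 0.04 and 0.14, neither called). Errfi1 is on the list of other immediate early genes as well. Of 16 genes tested on this list, 3 were up-regulated, against 4.26% of all genes. The count was 2 by DESeq2, 3 by the exact test and limma voom, and 2 with RLE size factors or with library totals alone. There were 0 down-regulated by edgeR and by the other 3 tools, against 2.23%. At an unadjusted p below 0.05, 7 of 16 were higher and 0 lower, against 14.9% and 14.3% of all genes. The median log2 fold change of the list was 0.19. The phosphatases Dusp10 and Dusp8, which act on JNK and p38, were at 4.77 ± 0.504 and 27.0 ± 5.68 CPM with negative siRNA. With DNMT1 siRNA they were at 8.65 ± 0.400 and 47.8 ± 0.497 CPM, log2 fold changes of 0.86 (FDR = 0.00794) and 0.83 (FDR = 0.00899). Spry4, a Sprouty protein that blocks growth factor signalling, was 67.7 ± 10.3 and 102 ± 3.02 CPM (0.59, FDR = 0.0124), at the fold limit. The count was 0 without DNMT1 siRNA cultures 1 or 2, 2 without DNMT1 siRNA culture 3 or negative siRNA culture 2, and 4 without negative siRNA culture 3.

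Genes that textbooks give as AP-1 targets, matrix proteases, cytokines and secreted factors for the most part, had a median log2 fold change of -0.22. Of 28 listed, 24 were tested, 1 was up-regulated and 4 were down-regulated, against 4.26% and 2.23% of all genes. The number up-regulated was 2 by DESeq2, by the exact test, with upper quartile scaling and with either other filter on low counts, and 3 without negative siRNA culture 1. Edn1, which encodes the vasoconstrictor and hypertrophic peptide endothelin, was 44.6, 65.5 and 57.3 CPM with negative siRNA and 121, 121 and 118 CPM with DNMT1 siRNA (log2 fold change 1.11, SE 0.13, FDR = 0.00222), with its call kept in all 6 fits that left out a culture. Timp1, an inhibitor of matrix proteases, was 169, 211 and 109 against 86.2, 75.5 and 78.3 CPM (-1.03, FDR = 0.0176). Plaur, the urokinase receptor, Col1a2, a fibrillar collagen, and Ccl2, a chemokine for monocytes, had log2 fold changes of -0.78, -0.69 and -0.60 (FDR = 0.0100, 0.0394 and 0.0350). Col1a2 is also a fibroblast marker above. The 4 down-regulated genes numbered 0 when any 1 of the DNMT1 siRNA cultures was left out and 6 without negative siRNA culture 1.

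Genes of the integrated stress response, in which ATF4 drives amino acid synthesis and transport as well as Atf3 and Ddit3, include many that were down-regulated, although Atf3 itself did not pass the test. Of 23 tested, 13 were down-regulated and 0 up-regulated (0 also by DESeq2, the exact test and limma voom), where 2.23% and 4.26% of all genes were. At an unadjusted p below 0.05, 0 were higher and 18 lower, against 14.9% and 14.3% of all genes. The median log2 fold change was -0.68. Trib3, an inhibitor induced by ATF4, was 31.6, 46.5 and 46.1 CPM with negative siRNA and 12.3, 11.5 and 12.5 CPM with DNMT1 siRNA (-1.77, SE 0.16, FDR = 0.000868). Asns, asparagine synthetase, was 115, 152 and 139 against 61.1, 56.5 and 65.5 CPM (-1.15, FDR = 0.00116). For both genes every knockdown culture lay far below every control. Chac1, which degrades glutathione, Shmt2, a mitochondrial serine enzyme, and Slc7a5, an amino acid transporter, had log2 fold changes of -1.22, -1.12 and -1.10 (FDR = 0.00118, 0.000911 and 0.000781). Fgf21, a stress-induced hormone, had the lowest value (-2.02, SE 0.54, FDR = 0.0452), with negative siRNA culture 2 at 7.43 CPM and the other controls at 1.96 and 2.69 CPM, and lost its call without any 1 of the DNMT1 siRNA cultures. Atf4 itself was below the FDR limit and not past the fold limit (-0.57, FDR = 0.00701). Leaving out each culture gave 9 to 15 down-regulated genes. Atf4, Atf5 and Ddit3, among others, are bZIP genes of the list above as well, so the lists are not independent.

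**Figure D5:**
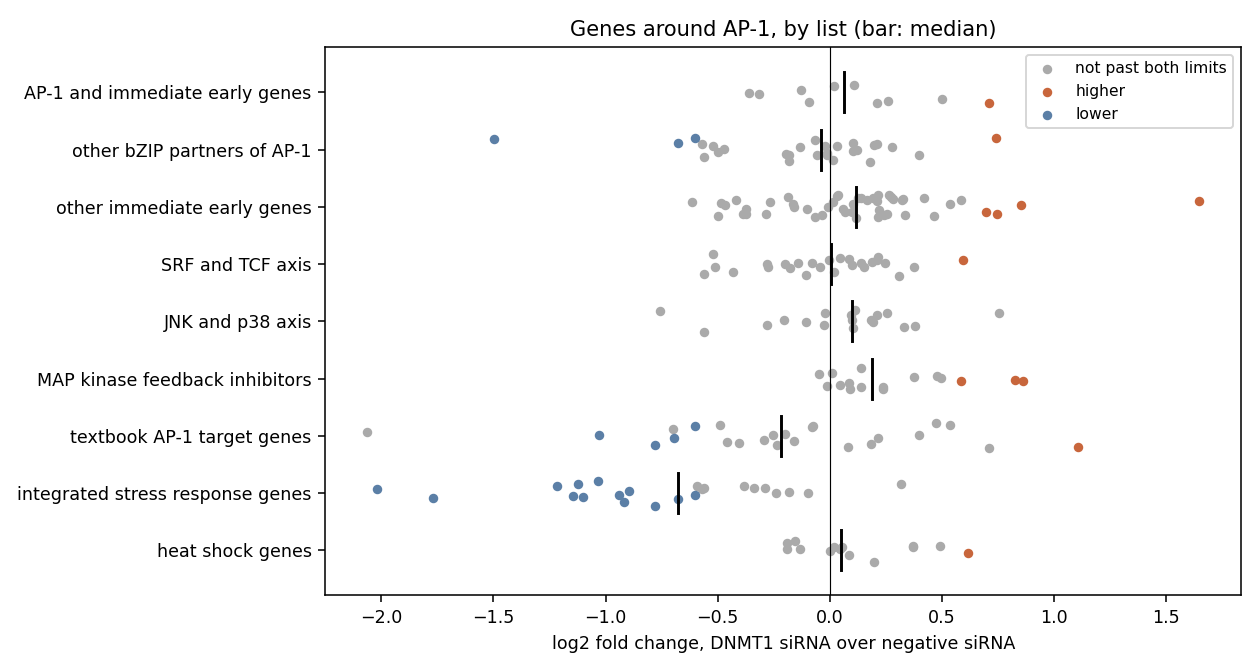
Log2 fold change (DNMT1 siRNA over negative siRNA) of every tested gene on each list, with a bar at the median of the list and colour for genes past both limits (higher or lower). The 9 lists plotted leave out marker lists and RNAs without a poly(A) tail. Medians run from -0.68 for the integrated stress response genes to 0.19 for the list of MAP kinase feedback genes, and the members sit at 0.06.

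The genes most like Fos and Jun across the 6 libraries were found by the root mean square difference of log2 CPM, centred on the mean of the negative siRNA cultures. For Fos they were Gm14488 (0.0843), Gm16793 (0.0858), Klf8 (0.0875), Mybphl (0.0947) and 9330151L19Rik (0.0973), at log2 fold changes of 0.62 to 0.85. None of these passed the test and all were below 5 CPM, so that their likeness rests on few counts. For Jun they were Bscl2 (0.0172), Cnnm3 (0.0298), Xrcc1 (0.0324), Prkaca (0.0324) and Fhl2 (0.0331), at log2 fold changes of 0.19 to 0.23, none below an FDR of 0.05. With 6 libraries in 2 groups such a profile carries little beyond the difference of the groups.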

How the data were processed

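RNA-Seq was done on 6 libraries, 3 per treatment. Per the labels and the methods of the study, the authors checked reads with FastQC, mapped them to mm10 with TopHat2, assigned them to Ensembl genes with HTSeq, and the deposited values are raw counts. Tool versions and the strand setting are not given in the sources used here. Rows that name no gene (15.1% to 34.1% of gene and non-gene reads for those outside genes) stayed out of the library sizes, and all 37 mitochondrial genes were at 0 counts.

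Groups came from the sample titles. Counts were fitted in R 4.3.3 with edgeR 4.0.16 (filterByExpr with minimum count 10 and minimum total count 15, TMM, quasi-likelihood F test, no block), with Benjamini-Hochberg FDR over 15470 genes and limits of 0.05 and 1.5-fold. SE is the absolute log2 fold change over the square root of F. DESeq2 1.42.0, limma 3.58.1 (voom), the edgeR exact test, other scalings, filters, thinned libraries, a replicate block and leaving out each culture were the alternatives. Family shares were compared by exact permutation tests over cultures in Python 3.11.15 with scipy 1.17.1. The pipeline was tested on simulated data. A GENCODE annotation of GRCm38, newer than that of the authors, held 42462 of 43629 genes and gave positions and exonic lengths.

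All 10 members are given in full. Of each further list, genes past both limits are named, at most 6 by size of change, and for Fos and Jun the 5 genes of most similar profile. Atf4, Npr3 and Tek were named after their values were seen, as were genes that overlap a member. The members and lists were chosen with earlier results of these data known, so they are no independent support for any pattern. Same-numbered cultures were not treated as pairs. The labels do not say whether they were prepared together, and correlations of their deviations cannot show it. With a replicate block Junb and Jund were above the FDR limit (0.0582 and 0.0771). With 3 cultures per group precision is limited, most of all for genes with few counts. Pairs of replicate libraries differed by more than sampling noise, so none was counted as a copy.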

Additional observations from a re-analysis of the deposited data

How the results depend on the processing

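Over 17 alternatives Fos kept its direction (log2 fold change 0.59 to 0.88) and its call in 14. Leaving out each culture in turn gave 0 to 1 members called up, and over all genes 255 to 823 calls up and 112 to 472 down. Without the fold limit 2 members were down, and 1054 genes were higher and 874 lower. With no filter on low counts 994 genes were up-regulated and 701 down-regulated, and limma voom gave 223 down-regulated. The share of calls that were higher was 65.6%, and 74.2% by limma voom and 58.3% with library totals alone. The median log2 fold change of all genes moved furthest, by -0.04, with library totals alone. Fosl1 turned to -0.031 in thinned libraries and ran from -0.059 (without DNMT1 siRNA culture 2) to 0.24 when 1 culture was left out. Atf3 turned to -0.0089 in thinned libraries, -0.018 with library totals alone and -0.010 with no filter, and ran from -0.078 (without DNMT1 siRNA culture 1) to 0.083 when 1 culture was left out, with -0.054 without negative siRNA culture 1. Without division by length the Fos share differed by 6.20 percentage points, the Jun share by 6.89 and the log2 family ratio by 0.20. No shared deviation of same-numbered cultures was seen (correlations of deviations 0.0064, -0.02 and 0.03 for equal numbers, and not every culture was closest to its own number). Such correlations cannot show whether same-numbered cultures were prepared together, and the labels do not say. With the replicate block 513 genes were up-regulated and 285 down-regulated, Fos kept its call (FDR = 0.0184), Junb and Jund had FDR = 0.0582 and 0.0771, and the exact p of each share was 0.25, the smallest it can give. In other cases the cause of a change was not tested. Fosb, Fosl1 and Atf3, with 33 to 197 counts per library, have wide intervals at this depth.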

Other observations

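Heat shock genes, another stress programme that is induced within minutes, were described from a list of 14, all tested. Of these 1 was up-regulated, against 4.26% of all genes tested. There were 0 down-regulated (0 also by DESeq2, the edgeR exact test and limma voom), against 2.23% of all genes. At an unadjusted p below 0.05, 4 were higher and 1 lower, against 14.9% and 14.3% of all genes. The median log2 fold change was 0.05, while 4 were higher at FDR below 0.05 with no limit on the fold change, against 6.81% of all genes. The gene called was Cryab, a small heat shock protein abundant in muscle, at 190 ± 1.21 CPM with negative siRNA and 291 ± 4.93 CPM with DNMT1 siRNA (0.61 on the log2 scale, FDR = 0.00112). It lost its call without DNMT1 siRNA culture 1, and there were 2 calls without negative siRNA culture 1 and 0 with library totals alone or with no filter on low counts.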
